A study of Homo sapiens with 36 samples.

Results

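The genes described here are those whose transcript level changed when the dose of a MEK inhibitor was raised from 3 to 10 nM in LoVo cells. The comparison sets the 3 libraries of the 10 nM dose against the 3 libraries of the 3 nM dose, 6 of the 36 libraries of the series, over all 20802 genes of the count table. Of these genes, 12102 had enough counts to be tested. LoVo is an established human colorectal cancer line. The cells were grown in F-12K medium with 10% FBS and exposed for 24 hours to the inhibitor or to its vehicle, DMSO. The series holds 10 doses from 0.03 to 1000 nM and DMSO libraries on 2 sequencing chips, with 3 libraries in each of the 12 groups. Beside the 3 and 10 nM groups, the DMSO chip 1, DMSO chip 2, 1, 30 and 1000 nM groups were used, all of them LoVo cells with the same culture and exposure time. The compound is given in the labels by a literature citation only. All groups are of 1 cell line, and the labels do not say whether the libraries of a group came from separate cultures.

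MEK1 and MEK2 are the kinases that phosphorylate ERK1 and ERK2, the last kinases of the RAS, RAF, MEK and ERK cascade. Active ERK raises the transcription of immediate early genes, of MYC and of its own brakes, the dual-specificity phosphatases and the Sprouty proteins. ERK also phosphorylates the pro-apoptotic protein BIM and marks it for degradation. In intestinal epithelium the cascade is known for sustaining proliferation, and its inhibition is known to move cells towards differentiated states.

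Transcripts were measured with Ion AmpliSeq, which amplifies a short amplicon per gene from cDNA, here from 10 ng of total RNA. The 3 nM libraries held between 4520651 and 4751839 counts and the 10 nM libraries between 3253643 and 3695038, so every 3 nM library was deeper than every 10 nM library. The intestinal epithelium markers were present at both doses, and none of the 11 was at 0. Their summed level was 3781 to 4435 CPM (counts per 1000000 counts, after scaling) at 3 nM and 4334 to 4587 CPM at 10 nM. The labels name a chip for the DMSO libraries only, and 18 libraries made a sequencing pool. Whether the 3 and 10 nM libraries lay on different chips is not given, and a chip effect then cannot be told apart from the dose. For that reason the difference between the DMSO chips was computed for every tested gene, and it is printed for some of them. In bulk RNA, fewer cells of a state and less RNA per cell cannot be told apart.

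A moderate number of genes moved between 3 and 10 nM. At an adjusted p below 0.05 (edgeR's quasi-likelihood test, Benjamini-Hochberg adjustment over all tested genes), 203 genes were called, 1.68% of those tested. Of these, 113 were higher at 10 nM (0.934%) and 90 were lower (0.744%). Over all tested genes 6127 had a positive and 5975 a negative log2 step. The counts given for lists below stand against these values. The changes were small: the median log2 fold change was 0.57 among the rises and -0.57 among the falls, against 0.0040 over all tested genes, and 19 genes changed at least 2-fold (14 rises and 5 falls). Every library of one dose lay beyond every library of the other in 25.7% of all tested genes, and in 202 of the 203, which a call on the same 6 libraries nearly fixes. The exception was LOC400655. For the called genes named below, a lack of overlap therefore adds little to the call. Genes of the MAPK output, MYC, ribosome biogenesis, purine synthesis and serine and asparagine synthesis were among the falls. Among the rises were BMF and BCL2L11, which encode killer proteins of the BCL2 family, the lipase gene LIPC, CDH1, LAMB3, SQSTM1 and NDRG1.

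The count depended on single libraries. Leaving out 3 nM replicate 2 lowered it to 53, 10 nM replicate 2 to 72, 10 nM replicate 3 to 73, 3 nM replicate 1 to 84, 10 nM replicate 1 to 121 and 3 nM replicate 3 to 146. Without 3 libraries of other groups that stood apart in earlier processing (0.1 nM replicate 2, 1 nM replicate 1 and 1000 nM replicate 1), 672 genes were called, 332 higher and 340 lower, of 12211 tested. With every library thinned to 2972186 counts, the smallest total, 149 genes were called, 130 of them among the 203. Of 89 called genes named here, 20 were called under every alternative setting: ETV4, MYC, LYAR, PAICS, PFAS, PSAT1, MTHFD2, MUC2, REG4, LAMB3, BMF, BCL2L11, NDRG1, ENO1, C2CD4A, LIPG, CCDC85B, PRR15L, TRAP1 and YPEL3. Each of the other 69 lost its call when at least 1 of the 6 libraries was left out. None of the 89 changed direction under any setting.

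**Figure D1:**
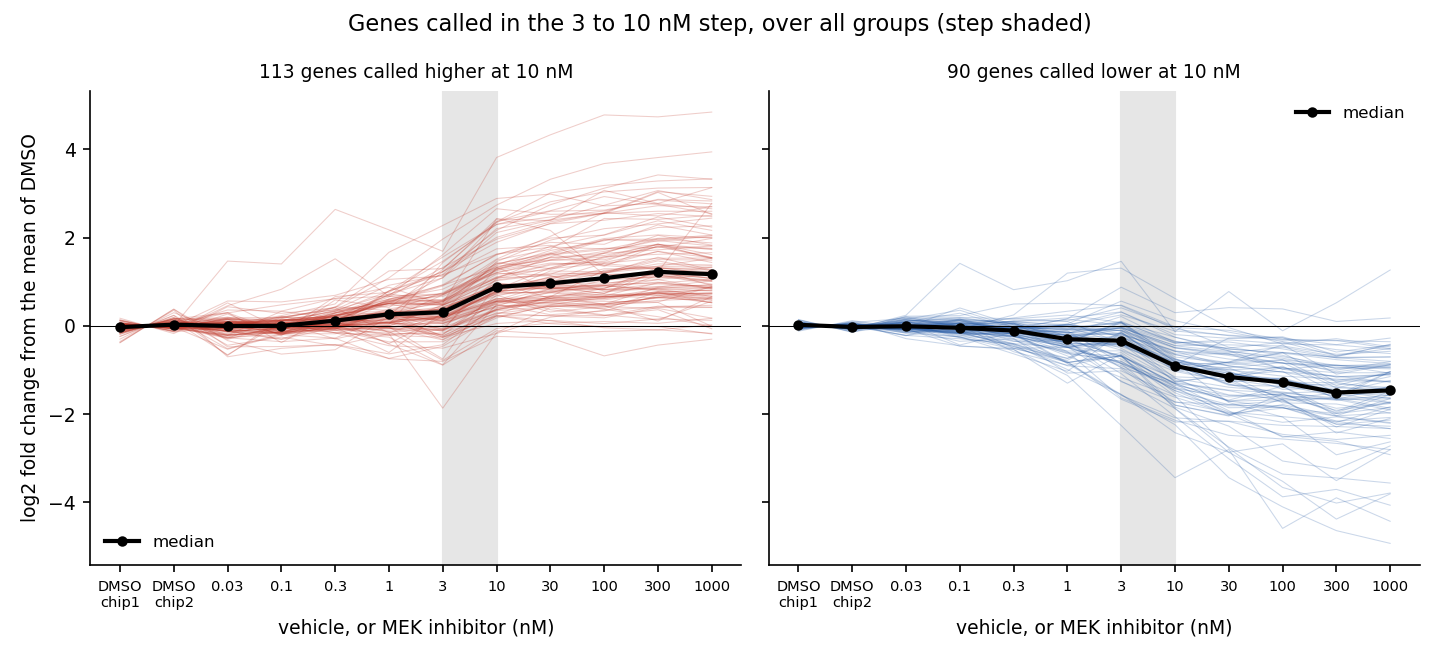
Log2 fold change from the mean of the DMSO libraries (y axis) in each of the 12 groups (x axis, vehicle then dose in nM) for the 113 genes called higher and the 90 genes called lower at 10 nM; thin lines are genes, the black line is their median and the shaded band is the 3 to 10 nM step used to choose them. The medians lie near 0 up to 0.1 nM and keep the direction of the step at 30, 100 and 300 nM.

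No single gene passed the test of the step with the DMSO chip difference taken off. Over all tested genes the median size of the log2 difference was 0.17 for the step and 0.10 for the chips. Over the 203 called genes, which were chosen by the step, these medians were 0.57 and 0.092. The difference between DMSO chip 2 and DMSO chip 1 was called in 0 genes (0%) by edgeR's quasi-likelihood test, in 2 by DESeq2 and in 0 by limma voom, with 308 genes (2.55%) at an unadjusted p below 0.05. The step less the chip difference was called in 0 genes (0%), in 10 by DESeq2 and in 6 by limma voom, with 1001 genes (8.27%) at an unadjusted p below 0.05 and a smallest adjusted p of 0.061. These counts of 0 depended on the model: with the replicate number as a block and only the groups compared, 177 genes were called for the chips and 207 for the step less the chip difference. Of the 203 called genes, 202 kept their sign with the chip difference taken off, and 159 of them (80 rises and 79 falls) also had an unadjusted p below 0.05 there. Without the 3 libraries that stood apart, 22 genes passed both tests: ASNS, EIF4A1, ETV4, GRB7, GRN, KIAA0913, LAMB3, LIPG, LYAR, MYC, PAICS, PFAS, PRR15L, PSAT1, RAN, REG4, SQSTM1, TMCC3, TRAP1, YPEL3, YPEL5 and ZFYVE1.

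A few called genes differed between the chips nearly as much as between the doses. For 9 of them the chip difference had the sign of the step and at least 50% of its size: APAF1, CCDC85B, FAM8A1, GSDMB, HNRNPC, KRT9, MEIS3, PIAS1 and SEC16B. HNRNPC, which encodes a nuclear pre-mRNA binding protein, was the extreme. Its level was 268, 280 and 280 CPM at 3 nM and 474, 482 and 389 CPM at 10 nM, a log2 step of 0.70 ± 0.17 (SE). Its mean was 294 CPM on DMSO chip 1 and 496 CPM on DMSO chip 2, a log2 chip difference of 0.75 that exceeded the step. With the chip difference taken off, -0.055 was left. FAM8A1 had a log2 step of 0.92 and a log2 chip difference of 0.77, and MEIS3 had 0.90 and 0.57. APAF1, the scaffold of the apoptosome, had a log2 step of 0.59 and a chip difference of 0.31. HNRNPC, MEIS3 and its retrocopy MEIS3P1 have near-identical copies elsewhere in the genome, and how amplicon reads were assigned among them is uncertain.

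**Figure D2:**
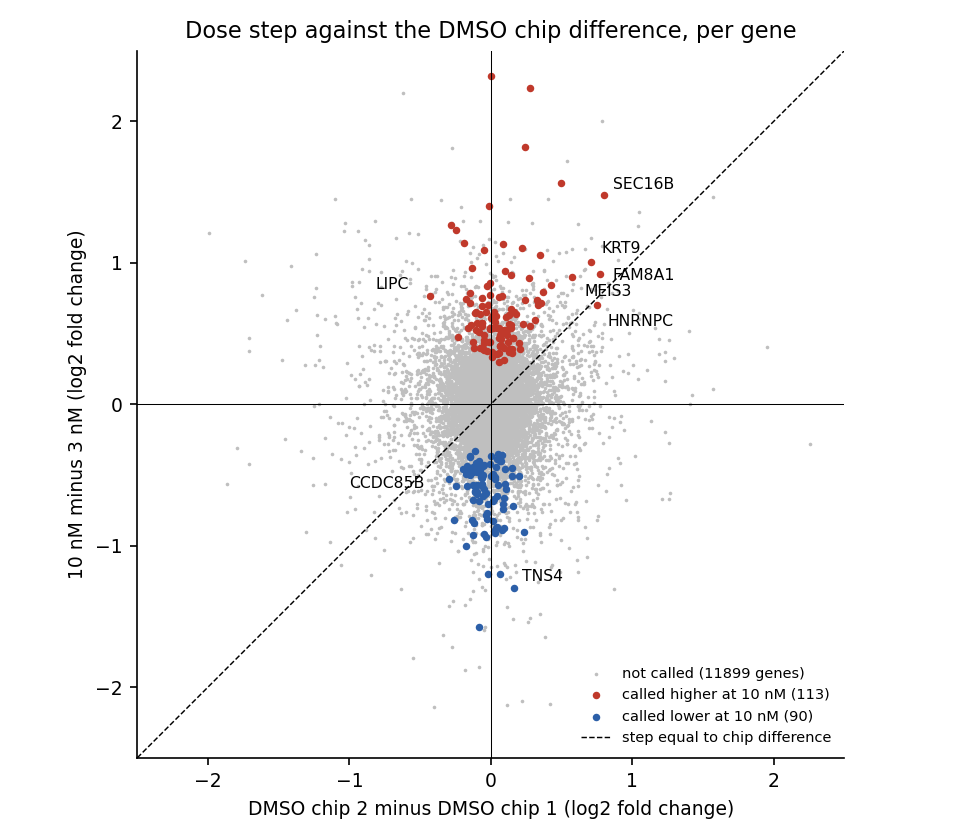
Log2 fold change of 10 nM minus 3 nM (y axis) against DMSO chip 2 minus DMSO chip 1 (x axis) for the 12102 tested genes; red and blue points are the 113 and 90 genes called in the step, and the dashed line marks a step equal to the chip difference. HNRNPC lies on the far side of the dashed line, and FAM8A1, MEIS3, KRT9 and SEC16B lie nearest to it among the labelled rises.

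Among direct readouts of ERK activity DUSP6, ETV4 and ETV5 fell further between 3 and 10 nM. Of the 10 genes of the MAPK activity list, 3 were called lower and 0 higher, and the median log2 step of the list was -0.29. Over all tested genes 0.744% were called lower. DUSP6 encodes the phosphatase that inactivates ERK in the cytoplasm. It stood at 20.3, 24.9 and 20.03 CPM at 3 nM and at 16.3, 11.0 and 13.4 CPM at 10 nM. Its log2 fold change was -0.68 ± 0.15 (SE; adjusted p = 0.011). ETV4 and ETV5 are ETS transcription factors induced by ERK. ETV4 fell from 40.5, 38.9 and 39.2 CPM to 20.1, 22.2 and 21.6 CPM, a log2 fold change of -0.89 ± 0.16 (adjusted p = 0.00091). ETV5 fell from 34.8, 31.0 and 35.0 CPM to 16.02, 11.8 and 25.8 CPM (log2 -0.92 ± 0.20, adjusted p = 0.011), with 10 nM replicate 3 nearest to the 3 nM libraries. Without 10 nM replicate 1 or replicate 2 the ETV5 call was lost, and without 3 nM replicate 2 or 10 nM replicate 2 that of DUSP6.

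The chips differed little for these genes. With the chip difference taken off, the log2 step was -0.70 for DUSP6, -0.97 for ETV4 and -0.80 for ETV5. The other members of the list did not pass the test. SPRY2, a Sprouty inhibitor of receptor signalling, was at 28.3, 30.4 and 30.3 CPM at 3 nM and 19.5, 23.3 and 24.0 CPM at 10 nM. Those libraries do not overlap, as in 25.7% of all tested genes, and the adjusted p was 0.12. SPRY4 was below 2 CPM in every library of both doses. DUSP4, a nuclear ERK phosphatase, had a log2 step of -0.13, EPHA2 had -0.16, CCND1 (cyclin D1) had -0.018, EPHA4 had 0.076 and PHLDA1 had 0.30. The mean of PHLDA1 was 214 CPM at 3 nM and 264 CPM at 10 nM (adjusted p = 0.092).

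Other genes known to respond to ERK gave 1 call in 15. TNS4, which encodes the adhesion protein tensin 4, fell from 5.49, 3.74 and 4.26 CPM to 2.04, 1.60 and 1.82 CPM. Its log2 fold change was -1.30 ± 0.33 (adjusted p = 0.030), and the call was lost when any 1 of the 6 libraries was left out. Genes of the cascade itself were not called: 0 of 12 RAS, RAF, MEK and ERK genes passed. MAPK3, the gene of ERK1, was closest, at 59.1, 65.8 and 67.6 CPM against 83.6, 83.1 and 76.8 CPM (log2 0.34, adjusted p = 0.063). MAP2K1, the gene of MEK1, had a log2 step of 0.099 and BRAF had 0.16. No member was called among 8 EGFR ligands and ERBB receptors or among 12 receptor feedback genes.

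**Figure D3:**
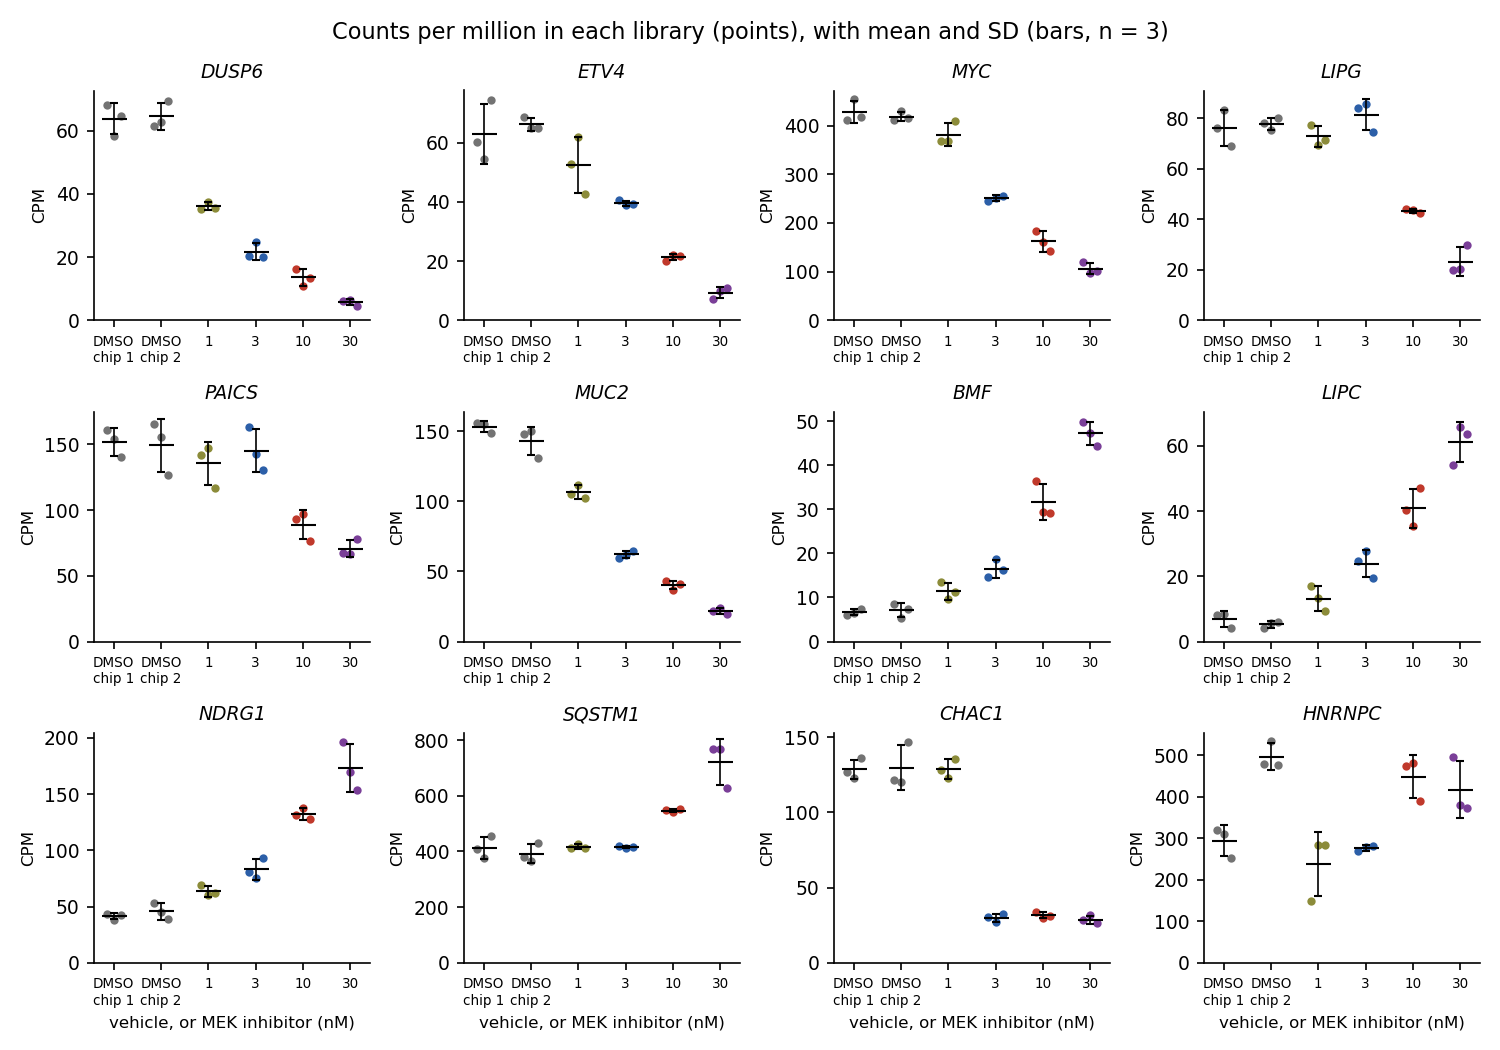
CPM (y axis, from 0) of 12 genes in each library of the DMSO chips and the 1, 3, 10 and 30 nM groups (x axis); points are libraries and bars are the mean and SD of 3 libraries. DUSP6, ETV4, MYC and MUC2 step down from 1 to 30 nM, LIPG and PAICS step down first at 10 nM, BMF, LIPC and NDRG1 step up, SQSTM1 steps up first at 10 nM, CHAC1 is level from 3 nM on, and HNRNPC differs between the DMSO chips.

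MYC, the growth-promoting transcription factor, had the smallest adjusted p of the step together with LIPG. It was at 244, 252 and 256 CPM at 3 nM and at 184, 161 and 142 CPM at 10 nM. The log2 fold change was -0.63 ± 0.094 (SE; adjusted p = 0.00011), and -0.60 with the chip difference taken off. The other 10 members of the MYC network list were not called.

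Ribosome biogenesis is the building of ribosomes in the nucleolus, and many of its genes are known MYC targets. All 31 tested genes of the list had a negative log2 step, with a median of -0.33 against 0.0040 over all tested genes. Of these 31, 4 were called lower and 0 higher, where 0.744% of all tested genes were called lower. NCL, the gene of nucleolin, a main nucleolar protein, had the largest fall. It went from 556, 548 and 426 CPM to 299, 302 and 233 CPM (log2 -0.87 ± 0.21, adjusted p = 0.035). LYAR, a nucleolar zinc finger protein of ribosomal RNA processing, went from 77.4, 71.9 and 66.9 CPM to 48.9, 38.8 and 48.9 CPM (log2 -0.67 ± 0.12, adjusted p = 0.0011). NOP2, a ribosomal RNA methyltransferase, went from 129, 132 and 118 CPM to 74.9, 90.6 and 89.6 CPM (log2 -0.57, adjusted p = 0.049). WDR43, a small subunit processome protein, went from 53.8, 51.0 and 44.5 CPM to 36.7, 32.6 and 35.8 CPM (log2 -0.51, adjusted p = 0.045). In each of these genes the doses did not overlap, as in 202 of the 203 called genes. The calls of NCL, NOP2 and WDR43 were lost under several of the settings that left out 1 library, and that of LYAR was kept in all. Outside the list, MYBBP1A, a nucleolar MYB-binding protein, had a log2 step of -0.44, PAK1IP1 had -0.72 and RIOK1, a kinase of small subunit maturation, had -0.82, all called. Of 32 cytosolic ribosomal protein genes 1 was called (RPS14, log2 -0.65), and their median was -0.042. RPS14 has processed pseudogenes, and the reads it received may not be its own alone.

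The promoters of these falling genes were searched for short motifs, and 3 are printed because they hold the E-box that MYC and its partner MAX are known to bind. Sequences are from RefSeq, build GRCh38.p14, a window of 300 bases that ends shortly after the start, 5′ to 3′ on the gene's strand, with capitals marking CACGTG. The intervals are chr12:6568242-6568541 on the minus strand for NOP2, chr2:28894417-28894716 on the plus strand for WDR43, and chr1:11059969-11060268 on the minus strand for SRM, the gene of spermidine synthase.
NOP2: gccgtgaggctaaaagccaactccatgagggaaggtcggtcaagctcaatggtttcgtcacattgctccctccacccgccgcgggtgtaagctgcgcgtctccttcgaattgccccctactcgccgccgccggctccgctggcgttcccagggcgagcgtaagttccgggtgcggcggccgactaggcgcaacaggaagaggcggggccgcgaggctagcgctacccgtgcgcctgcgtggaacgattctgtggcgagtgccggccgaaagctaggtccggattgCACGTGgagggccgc
WDR43: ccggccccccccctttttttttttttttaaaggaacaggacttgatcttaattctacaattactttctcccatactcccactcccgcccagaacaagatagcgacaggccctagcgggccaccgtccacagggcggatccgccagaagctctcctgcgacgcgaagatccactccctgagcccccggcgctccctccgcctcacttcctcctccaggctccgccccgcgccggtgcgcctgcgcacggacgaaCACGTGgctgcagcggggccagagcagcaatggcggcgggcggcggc
SRM: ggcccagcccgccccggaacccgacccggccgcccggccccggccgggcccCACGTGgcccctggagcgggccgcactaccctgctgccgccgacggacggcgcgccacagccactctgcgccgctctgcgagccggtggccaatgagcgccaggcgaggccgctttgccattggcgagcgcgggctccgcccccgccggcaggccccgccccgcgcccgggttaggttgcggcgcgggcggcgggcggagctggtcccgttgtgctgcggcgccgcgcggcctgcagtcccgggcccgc
Counted from the first base printed, the E-box lies at bases 286 to 291 in NOP2, 254 to 259 in WDR43 and 52 to 57 in SRM. Among other called ribosome and purine genes named here, MYBBP1A and PAK1IP1 also held CACGTG in their window. NCL, LYAR, RIOK1, RPS14, PAICS, GART and PFAS did not. A promoter was found for 72 of the 90 genes called lower (80%), 75 of the 113 called higher (66.4%) and 8730 of all tested genes (72.1%). CACGTG, which reads the same on both strands, was in 12 of the 72 (16.7%), 4 of the 75 (5.33%), 10.5% of the tested genes with a promoter and 7.43% of all 27305 promoters of the table. The ETS core CCGGAAGT, on either strand, was in 8 of the 72 (11.1%), 0 of the 75 (0%), 8.92% of the tested genes and 4.44% of all promoters. With more than 20% of the rises and of all tested genes unmatched, these shares are descriptions only, and a match is not a binding site.

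Several enzymes that make purines and polyamines fell. In the nucleotide and polyamine synthesis list 3 of 19 genes were called lower and 0 higher, where 0.744% of all tested genes were called lower. A negative log2 step was seen in 18 of 19, and the median was -0.18. PAICS and GART carry out successive steps of purine synthesis. PAICS went from 163, 143 and 130 CPM to 92.9, 97.3 and 76.8 CPM, a log2 fold change of -0.71 ± 0.12 (adjusted p = 0.00057). GART went from 32.3, 29.7 and 27.9 CPM to 17.8, 19.2 and 19.4 CPM (log2 -0.67, adjusted p = 0.028). PFAS, another purine enzyme outside the list, went from 60.4, 64.7 and 60.1 CPM to 40.8, 40.1 and 37.1 CPM (log2 -0.65, adjusted p = 0.0027). SRM went from 91.2, 80.7 and 80.6 CPM to 67.6, 63.4 and 50.4 CPM (log2 -0.48, adjusted p = 0.018). With the chip difference taken off, the log2 steps of these 4 genes were -0.68, -0.69, -0.69 and -0.37 in the same order.

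Of 20 mitochondrial ribosomal protein genes tested, 1 was called lower and 17 had a negative log2 step, with a median of -0.19. That is 1 in 20, where 0.744% of all tested genes were called lower. The called one, MRPL12, went from 120, 92.4 and 101 CPM to 78.4, 82.3 and 75.9 CPM (log2 -0.40, adjusted p = 0.020). Other mitochondrial genes, from no list and picked for their falls, follow. MRPL17 had a log2 step of -0.91 (adjusted p = 0.041). TFAM, the packaging factor of the mitochondrial genome, had -0.74, and TIMM50, a subunit of the inner membrane import channel, had -1.20. TIMM50 was low, at 10.3, 6.16 and 6.61 CPM against 3.79, 3.48 and 2.73 CPM.

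The amino acid response controlled by the transcription factor ATF4 moved less over this step than from 1 to 3 nM. Its list had a median log2 step of -0.73 from 1 to 3 nM and of -0.13 from 3 to 10 nM. Of 26 tested genes, 3 were called lower from 3 to 10 nM and 0 higher, where 0.744% of all tested genes were called lower. The 3 called genes encode enzymes: ASNS makes asparagine, PSAT1 belongs to serine synthesis and MTHFD2 to mitochondrial folate metabolism. PSAT1 went from 249, 264 and 257 CPM to 181, 180 and 183 CPM (log2 -0.51 ± 0.10, adjusted p = 0.0030). MTHFD2 went from 502, 443 and 545 CPM to 378, 353 and 353 CPM (log2 -0.46, adjusted p = 0.00091). ASNS went from 86.7, 82.9 and 75.9 CPM to 54.5, 63.6 and 54.4 CPM (log2 -0.51, adjusted p = 0.0066), and its step grew to -0.71 with the chip difference taken off. The other 23 were not called, with log2 steps from -0.69 for CEBPG, a partner of ATF4, to 0.21. CHAC1, which degrades glutathione, was at 30.2, 27.3 and 32.4 CPM against 33.8, 29.9 and 31.3 CPM, and DDIT4, an inhibitor of mTORC1, at 168, 154 and 166 CPM against 189, 169 and 161 CPM. Among 20 aminoacyl-tRNA synthetase genes 1 was called lower, GARS, with a log2 step of -0.35 and an adjusted p of 0.049.

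Few cell cycle genes were called. Of 31 DNA replication genes tested, 29 had a negative log2 step, as had 5975 of all 12102 tested genes. The 1 call was CHAF1A, a subunit of the chromatin assembly factor at the replication fork. It went from 98.1, 87.5 and 79.5 CPM to 62.9, 65.8 and 59.2 CPM (log2 -0.50, adjusted p = 0.017). With the chip difference taken off it had -0.32 and an unadjusted p of 0.066. The list median was -0.18. Of 30 mitosis genes 27 had a negative log2 step, with a median of -0.14, and 0 were called. No gene was called among 20 G1 cyclins and CDK inhibitors, whose median was -0.0044, nor among 21 p53 targets, whose median was -0.010.

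In the BCL2 family 2 of 14 tested genes were called higher and 0 lower. Of the 14, 7 had a positive and 7 a negative log2 step, with a median of 0.063. Over all tested genes 0.934% were called higher. BMF and BCL2L11 encode BH3-only proteins that bind and neutralise the protective members of the family, and BCL2L11 is the gene of BIM. BMF was at 14.6, 18.7 and 16.2 CPM at 3 nM and at 36.4, 29.4 and 29.2 CPM at 10 nM, a log2 fold change of 0.94 ± 0.15 (SE; adjusted p = 0.00039). BCL2L11 was at 34.8, 32.6 and 33.0 CPM and at 53.6, 58.3 and 54.1 CPM (log2 0.72 ± 0.13, adjusted p = 0.0011). Both were called under every setting. The chips differed in the same direction for BCL2L11, by 0.33, so 0.39 was left with the chip difference taken off (unadjusted p = 0.072). For BMF 0.84 was left. The other 12 tested members of the family were not called, with log2 steps from -0.86 for BID to 0.47 for BAD. BCL2L15, a further relative, rose from 2.32, 3.96 and 5.75 CPM to 8.45, 10.4 and 9.41 CPM (log2 1.23, adjusted p = 0.014).

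Secretory and absorptive genes of the gut moved in both directions. Of 8 tested goblet and secretory markers 2 were called lower and 2 higher, against 0.744% and 0.934% of all tested genes. MUC2, the gel-forming mucin of goblet cells, went from 59.7, 61.6 and 64.8 CPM to 42.8, 36.9 and 41.3 CPM (log2 -0.62 ± 0.11, adjusted p = 0.00091). REG4, a secreted lectin, went from 968, 929 and 858 CPM to 578, 599 and 601 CPM (log2 -0.63 ± 0.11, adjusted p = 0.00045). Both kept their call in every setting. MUC13, a membrane mucin, rose from 296, 318 and 283 CPM to 361, 382 and 440 CPM (log2 0.40, adjusted p = 0.044). LYZ, the gene of lysozyme, rose from 29.3, 20.7 and 27.1 CPM to 41.9, 37.2 and 42.5 CPM (log2 0.65, adjusted p = 0.031). With the chip difference taken off, its unadjusted p was not below 0.05. LYZ is also expressed by myeloid blood cells. The pan-leukocyte gene PTPRC and the T cell genes CD3E and CD3D were at 0 in all 6 libraries, and the myeloid gene CD14 had 10 counts over the 3 nM and 5 over the 10 nM libraries. The summed blood markers, mostly CD68 and without LYZ, were 9.90 to 12.9 CPM at 3 nM and 7.29 to 10.5 CPM at 10 nM.

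Among 16 tested enterocyte markers 1 was called, and it rose. Of the 16, 6 had a positive and 10 a negative log2 step, with a median of -0.013. LIPC, the gene of hepatic lipase, an enzyme best known from the liver, went from 24.7, 27.7 and 19.4 CPM to 40.2, 35.3 and 47.1 CPM (log2 0.77 ± 0.15, adjusted p = 0.0035). It lost the call without 10 nM replicate 3. LIPG, the gene of endothelial lipase and a relative of LIPC, moved the other way, from 84.2, 85.8 and 74.6 CPM to 44.0, 43.6 and 42.5 CPM (log2 -0.91 ± 0.13, adjusted p = 0.00011). With the chip difference taken off, LIPC had 1.20 and LIPG -0.94. The 2 lipases thus ended at similar CPM at 10 nM, though levels of different amplicons are not comparable in absolute terms.

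Some junction and adhesion genes rose. CDH1, the gene of E-cadherin, went from 275, 299 and 288 CPM to 375, 373 and 357 CPM (log2 0.36 ± 0.085, adjusted p = 0.016), the 1 call among 18 epithelial junction genes. In the adhesion list 2 of 22 were called higher and 1 lower (TNS4, above), against 0.934% and 0.744% of all tested genes. LAMB3, the beta chain of laminin 332, went from 144, 126 and 132 CPM to 191, 200 and 192 CPM (log2 0.54 ± 0.089, adjusted p = 0.00042). TNS1, the gene of tensin 1, went from 15.8, 14.7 and 11.7 CPM to 23.6, 18.4 and 26.7 CPM (log2 0.69, adjusted p = 0.040), opposite to its relative TNS4. Of 9 keratins 0 were called, with a median log2 step of 0.46 and 7 positive.

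Collagen transcripts were low, and 1 of them rose at this step. COL1A1, a fibrillar collagen, went from 4.64, 3.96 and 4.48 CPM to 9.90, 11.0 and 6.99 CPM (log2 1.09 ± 0.24, adjusted p = 0.011). COL3A1 was at 6.54, 7.48 and 5.11 CPM against 10.5, 8.82 and 7.59 CPM (adjusted p = 0.37), and LUM at 1.48, 1.98 and 0.64 CPM against 2.91, 2.67 and 0.91 CPM. The 10 fibroblast markers summed to 11.1 to 14.3 CPM at 3 nM and 16.4 to 24.1 CPM at 10 nM, against 3.30 to 5.01 CPM over both DMSO chips. The defining markers COL1A2, DCN, FAP and POSTN were at 0 in all 6 libraries of the step. Endothelial markers summed to at most 1.06 CPM in these libraries.

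Some genes of lysosomes and antigen processing, and 1 of sterol synthesis, were among the rises. In the lysosome and autophagy list 21 of 26 genes had a positive log2 step, with a median of 0.18, and 1 was called. SQSTM1, the autophagy receptor p62, went from 419, 411 and 414 CPM to 549, 540 and 552 CPM (log2 0.40 ± 0.095, adjusted p = 0.017). The libraries of each dose lay close together, yet the call was lost when any 1 of the 6 was left out. GRN, the gene of progranulin, a lysosomal protein outside the list, went from 255, 229 and 244 CPM to 348, 352 and 322 CPM (log2 0.49, adjusted p = 0.0057). HMGCS1, an early enzyme of cholesterol synthesis, was the 1 call among 27 cholesterol and fatty acid genes (log2 0.47, adjusted p = 0.033). Of these 27, 13 had a positive and 14 a negative log2 step, with a median of -0.028. With the chip difference taken off, the unadjusted p of HMGCS1 was not below 0.05. PSMB9, an immunoproteasome subunit of antigen processing, had a log2 step of 0.44 (adjusted p = 0.044). Of 14 tested genes of MHC class I presentation, 2 were called higher, 10 had a positive and 4 a negative log2 step. Of 23 interferon response genes 19 had a positive log2 step, with a median of 0.20, and 0 were called.

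Calls among glycolysis and hypoxia genes went both ways, with 2 of 23 called higher and 2 lower. Of the 23, 7 had a positive and 16 a negative log2 step, with a median of -0.063. NDRG1, a stress and differentiation gene, went from 80.8, 75.2 and 93.1 CPM to 131, 138 and 128 CPM (log2 0.67 ± 0.11, adjusted p = 0.00042). The glucose transporter gene SLC2A3 went from 113, 136 and 143 CPM to 172, 162 and 181 CPM (log2 0.39, adjusted p = 0.040). The enzymes fell: ENO1 had a log2 step of -0.43 (adjusted p = 0.0032) and PGAM1 one of -0.37 (adjusted p = 0.049). ENO1 went from 1417, 1530 and 1397 CPM to 1087, 1043 and 1101 CPM.

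Few chaperone and common reference genes were called. In the endoplasmic reticulum stress list 4 genes had a positive and 12 a negative log2 step (median -0.095). In the heat shock list these numbers were 5 and 11 (median -0.12), and among reference genes 5 and 7 (median -0.039). In the endoplasmic reticulum stress list 1 of 16 was called lower, PDIA4, a disulfide isomerase, from 45.2, 44.0 and 37.3 CPM to 31.8, 25.7 and 20.04 CPM (log2 -0.70, adjusted p = 0.035). In the heat shock list 1 of 16 was called lower, DNAJB1, an HSP40 cochaperone, from 52.8, 57.2 and 51.6 CPM to 37.3, 38.8 and 32.2 CPM (log2 -0.57, adjusted p = 0.036). For DNAJB1 the chips differed by -0.25, and -0.33 was left (unadjusted p = 0.16). Of 12 reference genes 1 was called, HPRT1, a purine salvage enzyme, with a log2 step of -0.84 (adjusted p = 0.0038). ACTB had a log2 step of 0.10 and GAPDH one of -0.052, neither called.

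**Figure D4:**
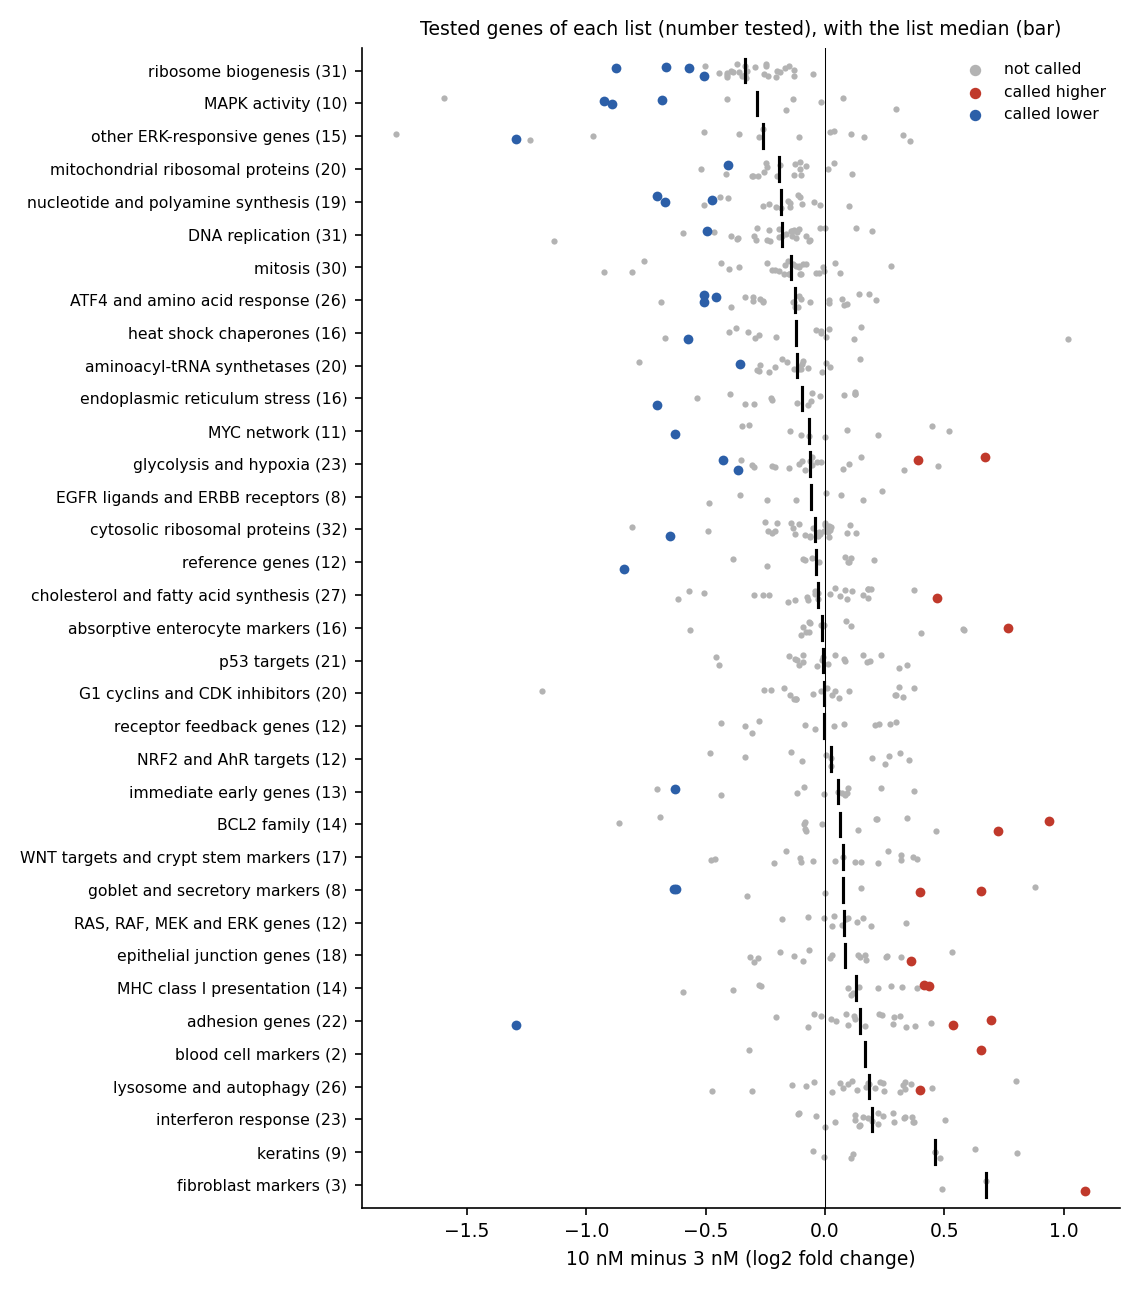
Log2 fold change of 10 nM minus 3 nM (x axis) of the tested genes of 35 lists (y axis, number tested in brackets), ordered by the list median (black bar); red and blue points are genes called higher and lower, grey points are not called. Ribosome biogenesis lies at the top, with every gene below 0, and the fibroblast, keratin, interferon and lysosome lists lie at the bottom with medians above 0.

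The largest rises came from genes of low level. For called genes whose doses did not overlap and whose mean reached 5 CPM at one dose or the other, the 10 largest rises were SEC16B, ZCWPW1, SLC16A4, BCL2L15, SLC4A8, GAL3ST2, FAM83E, COL1A1, FAM115C and KRT9, with log2 steps of 1.48 down to 1.01. SEC16B, a scaffold of endoplasmic reticulum exit sites, was at 3.38, 3.08 and 1.92 CPM at 3 nM and 8.45, 8.29 and 6.68 CPM at 10 nM, with a log2 chip difference of 0.80. SLC16A4 is a monocarboxylate transporter and SLC4A8 a bicarbonate cotransporter. SLC4A8 went from 3.38, 6.82 and 4.90 CPM to 9.32, 11.2 and 12.8 CPM. GAL3ST2, a sulfotransferase that acts on mucin sugars, went from 6.54, 3.30 and 3.62 CPM to 9.61, 11.5 and 8.50 CPM. Below 5 CPM, C20orf151 (log2 2.32), LOC100288846 (2.24) and MSH4 (1.82) were also called. LOC400655, with 1 pair of overlapping libraries, had a log2 step of 1.56, from 3.80, 0.44 and 2.56 CPM to 3.79, 5.88 and 10.9 CPM.

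By the same limits, which leave out TNS4 for its level, the 10 largest falls were LOC349196, TIMM50, TRABD2A, C2CD4A, MSANTD4, ETV5, MRPL17, LIPG, ADAT2 and RNASEH2B, with log2 steps of -1.57 to -0.90. C2CD4A was at 20.05, 19.8 and 19.4 CPM at 3 nM and 10.2, 9.89 and 9.41 CPM at 10 nM, with libraries of each dose close together (log2 -1.003 ± 0.19, adjusted p = 0.0019). TRABD2A, an inhibitor of Wnt signalling, went from 37.6, 49.7 and 27.1 CPM to 21.0, 17.6 and 10.9 CPM. ADAT2 encodes a tRNA deaminase subunit (log2 -0.90) and RNASEH2B a subunit of the ribonuclease that removes RNA from DNA (log2 -0.90).

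Set beside the neighbouring steps, which share the 3 nM or the 10 nM libraries with it, the order of the counts of calls depended on the libraries fitted. In the order of the count table this step crosses the DMSO chip 2 libraries and the neighbouring steps do not. The part of the chips in the differences between steps was not tested. This step gave 203 calls. From 1 to 3 nM 554 genes were called (4.58%), 207 higher and 347 lower. From 10 to 30 nM 34 were called (0.281%), 12 higher and 22 lower. Without the 3 libraries that stood apart, of which 1 nM replicate 1 is one, the counts were 672 for this step, 519 from 1 to 3 nM and 108 from 10 to 30 nM. The difference between the 3 to 10 nM step and the 1 to 3 nM step was itself called in 32 genes (0.264%), 19 with a positive and 13 with a negative difference. Leaving out 3 nM replicate 2 lowered the 32 to 11 and leaving out 1 nM replicate 2 raised it to 50. It was 120 without the 3 libraries that stood apart, 15 without 3 nM replicate 1, 15 without 10 nM replicate 3 and 17 without 3 nM replicate 3. The difference from the 10 to 30 nM step was called in 0 genes (0%) by edgeR's quasi-likelihood test, and in 0 by DESeq2 and by limma voom, with 365 genes at an unadjusted p below 0.05.

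In the ATF4 list 6 of 26 genes had a called difference between the steps, against 0.264% of all tested genes. All 6 fell from 1 to 3 nM. CHAC1 stood at 128, 123 and 136 CPM at 1 nM, fell by 2.10 on the log2 scale from 1 to 3 nM, and had a log2 step of 0.079 from 3 to 10 nM. The difference of the steps was 2.18 (adjusted p = 5.5e-09). DDIT4 stood at 664, 582 and 630 CPM at 1 nM, with log2 steps of -1.94 and then 0.091. SESN2 had -1.35 and then 0.18, TRIB3 had -1.38 and then -0.13, SLC7A11 had -1.38 and then -0.26, and STC2 had -1.504 and then -0.34. The adjusted p of the 6 differences lay between 5.5e-09 and 0.0090, and none of the 6 was called from 3 to 10 nM. DDIT3, a stress gene of the list below 2 CPM in these libraries, had a log2 step of 1.88 and then -0.30, neither called. Over the ATF4 list the median log2 step was -0.73 from 1 to 3 nM and -0.13 from 3 to 10 nM. From 1 to 3 nM 19 of its 26 genes were called lower, against 347 of all 12102 tested genes. The enzymes PSAT1 and MTHFD2 had log2 steps of -1.06 and -0.93 before this step, and their differences of 0.56 and 0.47 were not called (adjusted p = 0.17 and 0.16).

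Some genes rose from 1 to 3 nM and fell from 3 to 10 nM. They are among the 13 negative differences, of which 0 were called without 3 nM replicate 1, 1 without 3 nM replicate 2, and 4 each without 3 nM replicate 3 and without 10 nM replicate 3. PDIA4 stood at 19.3, 22.6 and 27.2 CPM at 1 nM, below every 3 nM library, with log2 steps of 0.86 and then -0.70 and a difference of -1.56 (adjusted p = 0.0090). Its DMSO means, 45.5 and 48.4 CPM on chips 1 and 2, were as high as at 3 nM. DNAJB1 stood at 27.2, 33.6 and 38.2 CPM at 1 nM, with steps of 0.69 and then -0.57 (adjusted p of the difference 0.0090). SIVA1, a pro-apoptotic adaptor, had 0.39 and then -0.58, TUBA1B, a tubulin, had 0.48 and then -0.44, and CBFB, the partner of the RUNX factors, had 0.47 and then -0.50. HACL1, a peroxisomal lyase, had 0.62, which was not called (adjusted p = 0.053), and then -0.88. A high value in the shared 3 nM libraries enters both steps with opposite signs. The 3 nM libraries were the deepest of these groups, and the part of depth in these differences was not tested beyond thinning, after which 25 differences were called, 8 of them negative. LIPG differed in another way: it was level from 1 to 3 nM (log2 0.17) and fell from 3 to 10 nM and again from 10 to 30 nM (log2 -0.89, adjusted p = 0.00094).

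**Figure D5:**
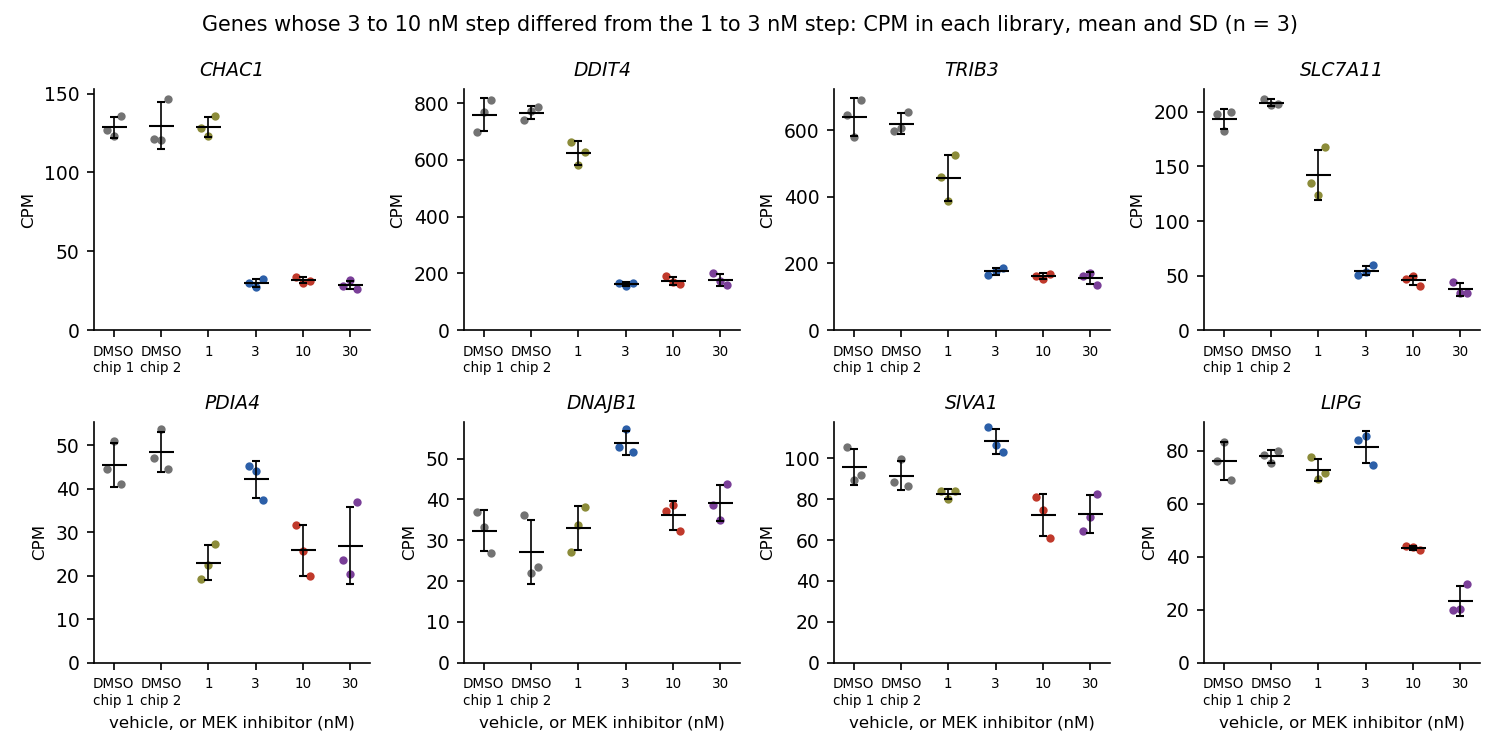
CPM (y axis, from 0) of 8 genes whose 3 to 10 nM step differed from the 1 to 3 nM step, in each library of the DMSO chips and the 1, 3, 10 and 30 nM groups (x axis); points are libraries, bars are mean and SD of 3. The upper 4 genes fall between 1 and 3 nM and change less after it, PDIA4, DNAJB1 and SIVA1 are highest at 3 nM among the 4 doses, and LIPG first falls at 10 nM.

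MYC, DUSP6 and MUC2 fell at each of the 3 steps. MYC had log2 steps of -0.61 from 1 to 3 nM, -0.63 from 3 to 10 nM and -0.62 from 10 to 30 nM, each called, and the differences of neighbouring steps were not called. DUSP6 had -0.74, -0.68 and -1.24, and MUC2 had -0.78, -0.62 and -0.88, all called. Ribosome biogenesis had median log2 steps of -0.25, -0.33 and -0.29. Of its 31 genes 4, 4 and 0 were called lower, against 347, 90 and 22 of all 12102 tested genes. BMF had 0.56, 0.94 and 0.58, and LIPC had 0.89, 0.77 and 0.59.

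Libraries that took no part in the step gave the same direction for most of its genes. The 30 and 1 nM groups bracket the step and share no library with it. Their chips are not given either, and in the order of the count table the DMSO chip 2 libraries lie between them. Dose and chip thus cannot be told apart in this comparison either. Between 1 and 30 nM 3544 genes were called (29.3%). Of the 203 genes of the step, 199 had the sign of 30 nM less 1 nM (112 rises and 87 falls), and 173 were called there with that sign and 0 with the other. HNRNPC, whose chip difference exceeded its step, was among the 199. Over all tested genes 70.3% had the same sign in both, against 98.03% of the called genes. Without the 3 libraries that stood apart 198 had the same sign, 176 of them called. The 4 with the other sign were DNAJB1, MSANTD4, PDIA4 and PTPRE. Against DMSO, 1000 nM gave the sign of the step in 197 of the 203 genes, 97.0% against 72.1% of all tested genes. The 6 others were ANTXR2, DNAJB1, HNRNPC, MEIS3P1, PTPRE and LOC349196. Of the 203, 188 were called at 1000 nM with the sign of the step and 2 with the other, among 6623 genes called there. LOC349196, the largest fall, stood at 7.81, 8.36 and 7.89 CPM at 3 nM and 4.08, 2.41 and 1.52 CPM at 10 nM, but had a log2 difference of 1.55 between 1000 nM and DMSO.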

How the data were processed

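Whole-number counts per gene were deposited by the authors, 1 column per library, and the counts equalled those in the 36 single-library files. Reads were mapped to hg19, per the submitters' processing notes. Of mapping and counting, the tools were not given in the sources used here. In the table, 10 spike-in entries held 0 counts and were left out. The labels call the 3 libraries of a group biological replicates, without saying whether they came from separate cultures, so p-values measure the spread between these libraries.

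Genes passing filterByExpr were scaled by TMM and fitted by edgeR 4.0.16 (R 4.3.3) with 12 groups over all 36 libraries, which leaves 24 residual degrees of freedom, and tested by the quasi-likelihood F test. Contrasts were Benjamini-Hochberg adjusted over 12102 genes and called below 0.05. SE is the log2 fold change divided by the square root of F. CPM values use TMM-scaled totals. DESeq2 1.42.0 and limma 3.58.1 (voom) were alternatives, and the fit was tested on simulated data. Other alternatives were the normalization, the filter, the libraries in the fit, a replicate block, each library left out and, chosen after seeing the data, thinning. Counts are of amplicons, which carry no molecular identifiers, and totals limit genes of few CPM most.

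The genes and the 36 lists were chosen with earlier results of these data known. The planned rule named the largest changes among genes called both in the step and with the chip difference taken off. It found none, so the text names the 10 largest rises and falls among genes called in the step with at least 5 CPM and no overlap, called members of the lists, and other genes picked after their values were seen. All members of the MAPK list are named, and some results are not reported here. Of the 36 lists, 35 had tested members. The endothelial list had none. The immediate early list held 1 call in 13 (MYC), WNT targets 0 in 17, and NRF2 and AhR targets 0 in 12.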

Additional observations from a re-analysis of the deposited data

How the results depend on the processing

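Directions held for every called gene named under each setting run, and the number of calls did not. The step was called in 205 genes with DESeq2 size factors, 206 with limma voom and 294 with DESeq2. Total counts in place of TMM gave 223, with the split moving to 154 higher and 69 lower, and a floor of 1 CPM in 3 libraries gave 201, split 94 and 107. It was 483 without a filter (170 higher, 313 lower), 697 with only the 6 libraries fitted (285 and 412) and 672 (332 and 340) without the 3 libraries that stood apart. Leaving out 1 library gave 53 to 146. The step less the chip difference was called in 68 genes without a filter, 10 by DESeq2, 6 by limma voom, 127 with only those groups fitted, 22 without the 3 libraries and 27 with the chip difference added in its place. Leaving out 1 library gave 0 each time. The chip difference was called in 2 genes without a filter, 2 by DESeq2, 2 with only the DMSO libraries and 2 without the 3 libraries. The difference from the 1 to 3 nM step was called in 304 genes without a filter (69 positive, 235 negative, against 19 and 13), 76 by DESeq2, 75 with only those groups (14 and 61), 120 (58 and 62) without the 3 libraries and 11 to 50 with 1 library left out. The difference from the 10 to 30 nM step was called in 10 genes without a filter. The causes were not tested. CCND1 turned positive without some libraries, with leave-one-out values from -0.072 to 0.019 that include 0.0060 and 0.0029, EPHA4 negative, from -0.072 to 0.30 and including -0.054, and CHAC1 reached -0.020 in thinned libraries. DDIT3, at few counts, ran from -2.10 to 0.77 with 1 library left out.

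Replicate numbers did not pair the 3 and 10 nM libraries: the correlations of their deviations were 0.042, -0.016 and 0.056. With the replicate number as a block over all libraries the step was called in 206 genes. With the block and only the groups compared it was called in 873 (356 higher, 517 lower), the step less the chip difference in 207, the chip difference in 177 and the difference from the 1 to 3 nM step in 85. The DMSO libraries of the same number correlated by 0.15, 0.095 and 0.099, and their counts differed less across the chips (chi-square per degree of freedom 1.53 to 1.58) than those of 1 chip (1.60 to 2.47), but by more than sampling noise. Whether they share a culture or an extract is not given. At this depth genes of few CPM could be called only for large changes.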
